A study of Mus musculus with 8 samples.

Results

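Checkpoint and costimulatory ligands are surface proteins through which antigen-presenting and other tissue cells tune lymphocytes, and 6 of their genes were read from a table of 52636 genes by symbol, across 4 groups of cultured mouse liver endothelial cells. They were Cd274, Pdcd1lg2, Cd40, Icosl, Cd276 and Pvr. All 6 were in the table, and 5 had counts enough to be tested, among 15698 genes in all, while Pdcd1lg2 did not. The study compared cells labelled dKO with WT cells, each with or without inflammatory cytokines. Its design text names deletion of Erg, Fli1 or both, which encode ETS transcription factors of endothelium, but the labels do not expand dKO.

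The groups were dKO cells given IL1B and TNFA for 16 hours, WT cells given the same cytokines, dKO cells without cytokines and WT cells without cytokines, with 2 libraries in each. Per the design text, 4-OHT, the active form of tamoxifen, was added to the cultures for 48 hours, and cytokines were given 7 days after its addition, whereas the treatment label speaks of treated mice, and this was not settled. The text does not say whether WT cultures also received it. Neither the Cre driver, the age and strain of the mice, nor how many animals a library holds is given in the sources used here. The sort kept live cells that carried CD31 and VE-cadherin and lacked CD45, and polyadenylated RNA was sequenced. Whether the 2 libraries of a group stem from different animals or cultures is not stated by the labels. The p-values therefore reflect the spread of these libraries alone, and its source was not tested. That spread exceeded counting error in every group. The chi-square per degree of freedom was 83.4 with and 91.9 without cytokines in dKO cells, and 29.6 and 22.5 in WT cells.

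Library totals ran from 23009062 to 26944030 counts. Erg stood at 34.7 to 91.3 CPM (read counts scaled to a common library size) in the dKO libraries and at 186 to 208 CPM in the WT libraries, and Fli1 at 12.4 to 62.5 CPM in dKO and 91.5 to 177 CPM in WT. Both genes were higher in the 2 dKO replicate 2 libraries than in the 2 dKO replicate 1 libraries. Of the genes of the sorted proteins, Pecam1 (CD31) had 277 to 636 CPM in dKO and 797 to 1607 CPM in WT libraries, and Cdh5 (VE-cadherin) 163 to 600 CPM in dKO and 1233 to 1442 CPM in WT libraries. Of 2 markers of sinusoidal endothelium in the list, Lyve1 had 13.4 to 61.1 CPM in dKO and 63.9 to 159 CPM in WT libraries, and Stab2 was at 1.7 CPM or less in all 8. Reads from exons that a deletion leaves in place are counted too, and these levels therefore do not measure its completeness. The summed level of 14 endothelial markers was 1804 to 2849 CPM in dKO with cytokines, 6259 to 6541 CPM in WT with cytokines, 2160 to 4090 CPM in dKO without and 10818 to 11069 CPM in WT without. The summed level of 14 markers of leukocytes and dendritic cells was 6.48 to 16.0 CPM in every library, and Ptprc, which encodes CD45, had 0 or 1 counts. Hepatocyte markers summed to 0.0909 CPM at most. In contrast, 12 markers of stellate cells, pericytes and fibroblasts summed to 13400 to 19188 CPM in dKO libraries and 9220 to 10857 CPM in WT libraries, most of it from Dcn, which encodes the matrix proteoglycan decorin. In bulk RNA, more cells of a type and more RNA per cell cannot be told apart.

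The ligands act at the contact between a T cell or natural killer cell and its partner. PD-L1, encoded by Cd274, and PD-L2, encoded by Pdcd1lg2, bind the inhibitory receptor PD-1. ICOS ligand, encoded by Icosl, engages the costimulatory receptor ICOS, and CD276, also called B7-H3, is a relative of both whose receptor is less settled. CD40 is a receptor of the TNF receptor family that answers CD40 ligand on T cells and signals through TRAF adaptors to NF-kB. The poliovirus receptor CD155, encoded by Pvr, is a nectin-like adhesion protein bound by the activating receptor CD226 and by the inhibitory receptors TIGIT and CD96. Endothelial cells present these proteins to passing lymphocytes, and liver sinusoidal endothelium is known for restraining T cells through PD-L1.

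RefSeq promoters of GRCm38.p6 were found for 4 of the 6 genes, and they are shown because Cd274 and Icosl rose with cytokines in WT cells, Cd276 differed between the genotypes and Pdcd1lg2, beside Cd274, had 0 counts. Each runs from 250 bases before to 50 bases after the RefSeq start, 5′ to 3′ on the strand of the gene. Capitals mark matches on either strand to the ETS core GGAA, its extension AGGAAG, which holds the core, the kappaB motif of NF-kB, the interferon element core (GAAA, any 2 bases, GAAA) and the GAS element TTCNNNGAA.
Cd274, chr19:29367188-29367487, plus strand: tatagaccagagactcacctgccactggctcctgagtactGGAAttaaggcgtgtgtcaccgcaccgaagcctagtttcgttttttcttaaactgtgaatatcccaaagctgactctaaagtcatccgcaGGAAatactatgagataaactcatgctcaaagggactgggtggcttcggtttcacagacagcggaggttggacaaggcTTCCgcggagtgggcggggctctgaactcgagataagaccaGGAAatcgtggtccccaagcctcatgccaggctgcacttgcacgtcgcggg
Pdcd1lg2, chr19:29410669-29410968, plus strand: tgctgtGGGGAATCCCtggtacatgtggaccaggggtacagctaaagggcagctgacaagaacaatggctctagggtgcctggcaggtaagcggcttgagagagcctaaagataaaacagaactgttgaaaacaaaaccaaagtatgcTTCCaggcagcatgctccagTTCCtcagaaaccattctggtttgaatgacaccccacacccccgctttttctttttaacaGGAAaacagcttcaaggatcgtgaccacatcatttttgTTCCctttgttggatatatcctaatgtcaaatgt
Icosl, chr10:78069118-78069417, plus strand: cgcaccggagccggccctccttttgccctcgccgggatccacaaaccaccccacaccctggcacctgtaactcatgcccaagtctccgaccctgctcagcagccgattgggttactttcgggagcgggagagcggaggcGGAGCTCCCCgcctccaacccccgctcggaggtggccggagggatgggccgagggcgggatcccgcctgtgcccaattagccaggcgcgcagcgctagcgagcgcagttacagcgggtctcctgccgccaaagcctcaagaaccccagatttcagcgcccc
Cd276, chr9:58554984-58555283, minus strand: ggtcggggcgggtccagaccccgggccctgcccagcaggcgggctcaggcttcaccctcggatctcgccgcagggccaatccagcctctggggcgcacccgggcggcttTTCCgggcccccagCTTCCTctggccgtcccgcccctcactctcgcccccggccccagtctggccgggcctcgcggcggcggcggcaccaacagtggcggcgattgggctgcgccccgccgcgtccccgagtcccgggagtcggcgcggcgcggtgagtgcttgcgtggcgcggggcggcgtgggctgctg
The ETS core was found at 4 places in the Cd274 window, 5 in that of Pdcd1lg2, 2 in that of Cd276 and 0 in that of Icosl, against a median of 3 over all 32851 promoters, of which 96.0% held at least 1. The extension AGGAAG was in the Cd276 window only among these 4, and in 35.4% of all promoters. The kappaB motif was found in the windows of Icosl, at positions -111 to -102 from the start, and Pdcd1lg2, at -244 to -235, and in 8.46% of all promoters. The interferon core (3.44% of promoters) and the GAS element (8.30%) were in none of the 4 windows. A match is a description of the letters and no evidence of binding.

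Levels between genes were compared per length, as CPM per kb of merged exons. In dKO cells without cytokines the order was Pvr with 15.6 ± 5.99 CPM per kb, Cd276 with 9.20 and 10.8 in its 2 libraries, Icosl with 1.80 ± 0.0787, Cd274 with 0.755 ± 0.00353 and Cd40 with 0.146 ± 0.0164 (SD, n = 2 each). In WT cells without cytokines Pvr had 28.6 ± 0.164 CPM per kb, Icosl 4.84 ± 1.64, Cd276 2.11 ± 0.259, Cd274 0.659 ± 0.0631 and Cd40 0.0203 ± 0.0133 (SD, n = 2 each). Cd276 thus stood above Icosl in dKO cells and below it in WT cells without cytokines. With cytokines the order was Pvr, Icosl, Cd276, Cd274 and Cd40 in dKO cells (32.8 ± 6.21, 22.2 ± 8.15, 12.4 ± 0.274, 1.36 ± 0.324 and 0.705 ± 0.135 CPM per kb) and Pvr, Icosl, Cd274, Cd276 and Cd40 in WT cells (63.9 ± 5.80, 33.8 ± 11.7, 7.12 ± 5.07, 2.66 ± 0.272 and 0.210 ± 0.0949 CPM per kb; SD, n = 2 each). Cd274 stood above Cd276 in both WT cytokine libraries, at 10.7 against 2.47 CPM per kb in replicate 1 and 3.53 against 2.86 in replicate 2. The size of that gap thus varied widely between the 2 libraries.

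**Figure D1:**
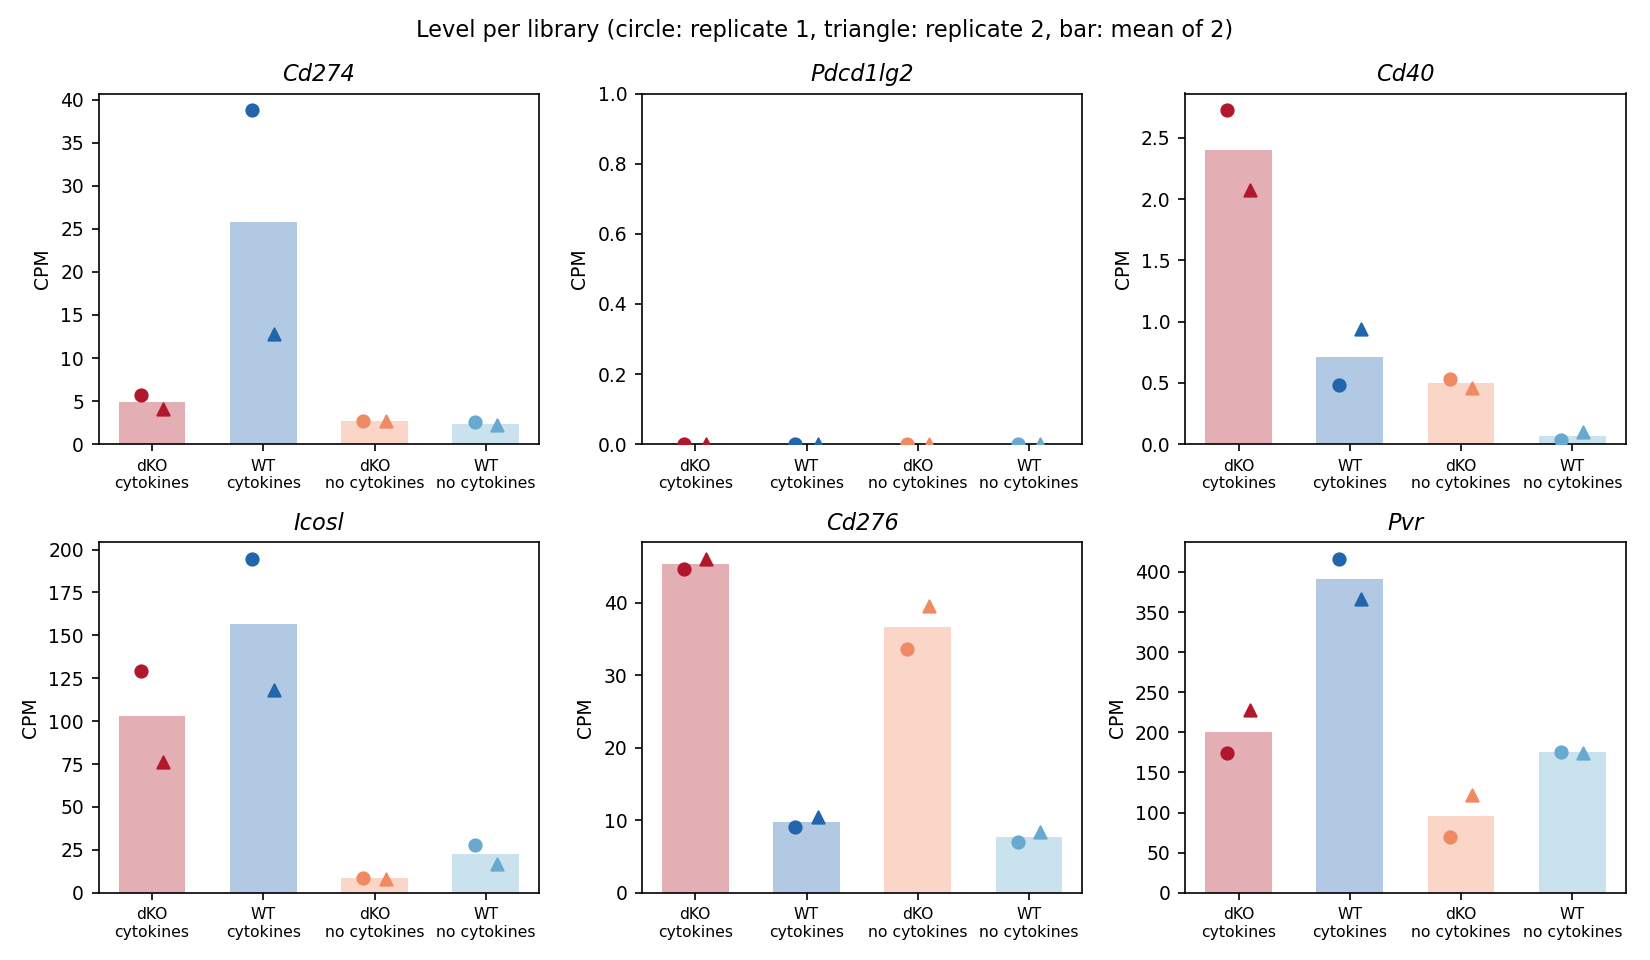
Level of each of the 6 genes in CPM (vertical axis, linear, a scale of its own in each panel) in the 4 groups, with replicate 1 as a circle, replicate 2 as a triangle and the bar at the mean of the 2. Cd274 stands out in WT cells with cytokines (38.8 and 12.8 CPM), Cd276 in both dKO groups (33.7 to 46.1 CPM), and Pdcd1lg2 has 0 counts throughout.

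Pdcd1lg2 (ENSMUSG00000016498, GRCm38 chromosome 19, 29410919 to 29471161, plus strand) had 0 counts in all 8 libraries. A count of 0 allows up to 0.101 to 0.136 CPM per library, by a floor of 3 counts. PD-L2 RNA was thus not detectable at this depth in any group, and no change could be tested.

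Cd274 (ENSMUSG00000016496, chromosome 19, 29367455 to 29388095, plus strand) had 5.77 and 4.11 CPM in dKO cells with cytokines and 38.8 and 12.8 CPM in WT cells with cytokines. Without cytokines it had 2.73 and 2.74 CPM in dKO cells and 2.55 and 2.22 CPM in WT cells. The 2 WT cytokine libraries were above all others but differed from each other by 3.03-fold, and the 4 libraries without cytokines lay close together. Over all tested genes, the groups did not overlap in 73.5% between dKO and WT with cytokines and in 68.2% between WT with and without. In WT cells Cd274 rose 10.8-fold with cytokines (log2 fold change 3.43, SE 0.54, adjusted p = 0.0112, edgeR's quasi-likelihood test). In dKO cells with cytokines the log2 fold change over dKO cells without was 0.85 (SE 0.51, 95% interval -0.39 to 2.09, adjusted p = 0.383, edgeR). Under cytokines dKO cells had 5.21-fold less Cd274 than WT cells (log2 fold change -2.38, SE 0.51, adjusted p = 0.0162, edgeR). Without cytokines the difference between dKO and WT was 0.20 on the log2 scale (SE 0.52, 95% interval -1.06 to 1.45, adjusted p = 0.804, edgeR).

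The test of whether the cytokine effect on Cd274 differed between the genotypes gave a log2 difference of -2.58 (SE 0.72, 95% interval -4.32 to -0.84), an unadjusted p of 0.0106 and an adjusted p of 0.299 in edgeR, so it did not pass. It passed in DESeq2 (adjusted p = 0.0179). The Cd274 values that involve WT cells with cytokines moved with each of the 2 libraries of that group. Without replicate 1 the WT response was 2.40 on the log2 scale (adjusted p = 0.0214, edgeR), the genotype difference under cytokines -1.37 (0.0476) and the difference between responses -1.55 (0.555). Without replicate 2 these were 4.02 (adjusted p = 0.00357, edgeR), -2.97 (0.00602) and -3.17 (0.0523). The WT cytokine response lost its call without WT replicate 1 (0.0878) or replicate 2 (0.0914) lacking cytokines. The genotype difference under cytokines lost it without dKO replicate 1 (0.0700) or replicate 2 (0.0708) given cytokines, without both dKO replicate 2 libraries (0.118) and when those 4 libraries alone were fitted (0.0584). An antisense transcript gene, AC119228.1, covers 14.1% of the Cd274 exon bases and has no row in the table, and its share of the Cd274 counts was not tested.

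Cd274 and Pdcd1lg2 lie 22823 bases apart, and their coding neighbours within 200000 bases were read to show whether the whole stretch moved. Jak2, which encodes a kinase of interferon and cytokine receptors, had 1418 and 1187 CPM in dKO cells with cytokines, 577 and 485 CPM in WT cells with cytokines, 317 and 271 CPM in dKO cells without and 98.7 and 94.1 CPM in WT cells without. It rose with cytokines in dKO cells (log2 fold change 2.15, SE 0.15, adjusted p = 0.00445, edgeR) and in WT cells (2.46, SE 0.16, adjusted p = 0.00110, edgeR). Unlike Cd274, Jak2 was higher in dKO than in WT cells both with cytokines (log2 fold change 1.29, SE 0.15, adjusted p = 0.00317, edgeR) and without (1.61, SE 0.15, adjusted p = 0.00261, edgeR). Plgrkt, a plasminogen receptor gene that starts beside Cd274 on the other strand, stayed between 17.6 and 28.6 CPM and passed in none of the 5 contrasts in edgeR, nor did Ric1. Insl6, a relaxin-family gene at 1.59 CPM or less, was higher in dKO than in WT cells with cytokines (log2 fold change 3.11, SE 0.70, adjusted p = 0.0179, edgeR) and without (4.56, SE 0.86, adjusted p = 0.0155, edgeR). In WT cells Insl6 had 0.309 and 0.0393 CPM with cytokines and 0.0369 and 0.0337 CPM without. The values without cytokines lay below the floor of 3 counts (0.111 and 0.101 CPM), so the sizes of these differences rest on few counts. Ermp1, an endoplasmic reticulum peptidase gene, was lower in dKO than in WT cells with cytokines (-0.60, SE 0.15, adjusted p = 0.0260, edgeR) and without (-0.66, SE 0.15, adjusted p = 0.0271, edgeR). These neighbours, Jak2 apart, were chosen after their values were seen.

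**Figure D2:**
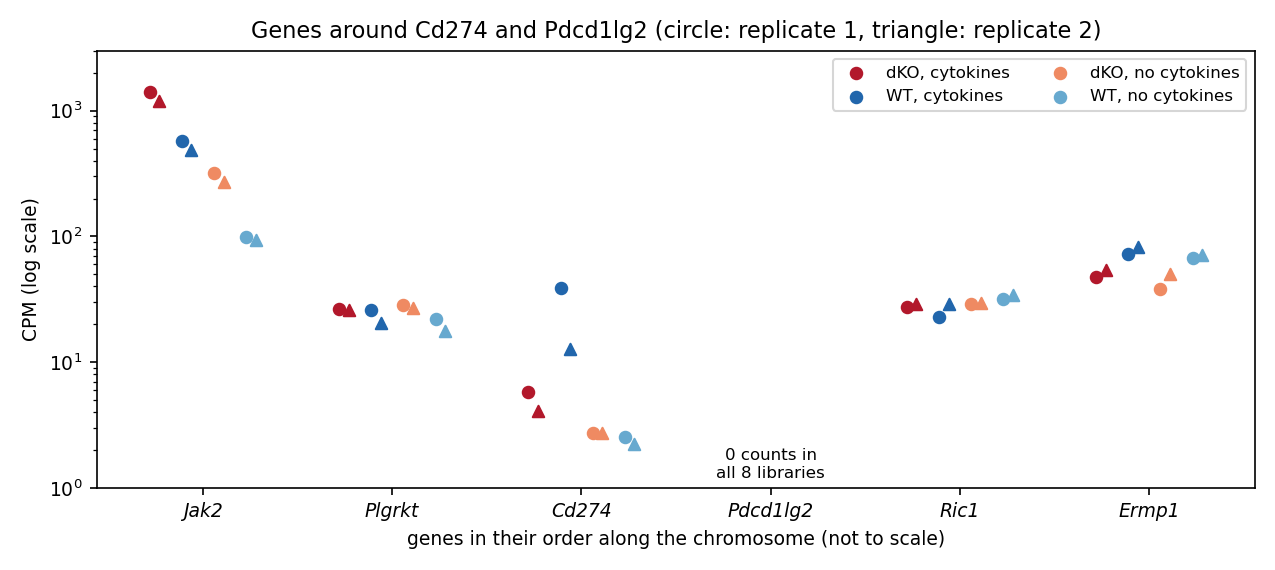
Level in CPM (vertical axis, log scale) of protein-coding genes within 200000 bases of Cd274 and Pdcd1lg2, in their order along the chromosome, with replicate 1 as circles, replicate 2 as triangles and 1 colour per group. Insl6 and Rln1, which stayed below 2 CPM, are not drawn. Jak2 separates all 4 groups, Cd274 stands out in WT cells with cytokines, and Plgrkt stays between 17.6 and 28.6 CPM.

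Icosl (ENSMUSG00000000732, GRCm38 chromosome 10, 78069302 to 78083913, plus strand) had 129 and 76.2 CPM in dKO cells with cytokines and 195 and 118 CPM in WT cells with cytokines. Without cytokines it had 8.58 and 8.07 CPM in dKO cells and 27.7 and 17.02 CPM in WT cells. In both genotypes the cytokine libraries lay above those without, and under cytokines the dKO and WT libraries overlapped. Libraries with and without cytokines did not overlap in 49.5% of all tested genes in dKO and 68.2% in WT cells. Icosl rose 12.3-fold with cytokines in dKO cells (log2 fold change 3.63, SE 0.41, adjusted p = 0.0132, edgeR) and 6.99-fold in WT cells (2.80, SE 0.39, adjusted p = 0.00903, edgeR). The difference between these responses was 0.82 on the log2 scale (SE 0.53, 95% interval -0.47 to 2.11, adjusted p = 0.653, edgeR). Without cytokines Icosl was 2.69-fold lower in dKO than in WT cells (log2 fold change -1.43, SE 0.39, adjusted p = 0.0462, edgeR). With cytokines the log2 fold change was -0.60 (SE 0.37, 95% interval -1.50 to 0.29, adjusted p = 0.240, edgeR).

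The response of Icosl in dKO cells lost its call without dKO replicate 1 (0.0858) or replicate 2 (0.0519) lacking cytokines, without both dKO replicate 2 libraries (0.0588) and with those 4 libraries alone (0.0916). That in WT cells lost it without WT replicate 2 lacking cytokines (0.0633). The lower Icosl level of dKO cells without cytokines lost its call without the filter on low counts (0.126), without any 1 of the 4 libraries compared (0.0780 to 0.187), without WT replicate 1 (0.0534) or replicate 2 (0.0535) given cytokines and without both dKO replicate 2 libraries (0.143).

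Cd276 (ENSMUSG00000035914, GRCm38 chromosome 9, 58524298 to 58555437, minus strand) had 44.7 and 46.1 CPM in dKO cells with cytokines and 9.04 and 10.4 CPM in WT cells with cytokines. Without cytokines it had 33.7 and 39.5 CPM in dKO cells and 7.05 and 8.39 CPM in WT cells. Every dKO library was above every WT library, at either treatment. The dKO and WT groups did not overlap in 73.5% of all tested genes with cytokines and 70.0% without. Cd276 was 4.65-fold higher in dKO than in WT cells with cytokines (log2 fold change 2.22, SE 0.15, adjusted p = 0.000946, edgeR) and 4.73-fold higher without (2.24, SE 0.15, adjusted p = 0.00114, edgeR). These 2 calls held under all 15 alternatives tried, with log2 fold changes from 2.12 to 2.32 with cytokines and from 2.11 to 2.37 without. The log2 fold change with cytokines was 0.31 in dKO cells (SE 0.14, 95% interval -0.02 to 0.64, adjusted p = 0.242, edgeR) and 0.33 in WT cells (SE 0.14, 95% interval -0.01 to 0.68, adjusted p = 0.159, edgeR). Gm10657, on the other strand, covers 11.4% of the Cd276 exon bases and had 0 to 5 counts.

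Markers of other cell types differed between the genotypes beside Cd276 and Cd40. Of 12 markers of stellate cells, pericytes and fibroblasts 11 were tested, and 6 were higher and 0 lower in dKO cells both with and without cytokines in edgeR, with a summed level of 13400 to 19188 CPM in the dKO libraries and 9220 to 10857 CPM in the WT libraries. Without Dcn, the other 11 summed to 1701 to 4401 CPM in the dKO libraries and 174 to 280 CPM in the WT libraries. Pdgfra, a fibroblast and stellate cell receptor gene, averaged 774 CPM in dKO and 2.87 CPM in WT cells without cytokines (268-fold higher, adjusted p = 0.00131, edgeR), and the collagen genes Col3a1 and Col1a2 were 42.2-fold and 41.5-fold higher (adjusted p = 0.0189 and 0.00147, edgeR). Col3a1 had 1831 and 332 CPM in the 2 dKO libraries there. Without a call, Rgs5 had the opposite direction without cytokines (mean 1.93 CPM in dKO, 8.30 CPM in WT cells). So did Acta2 with cytokines (4.20 and 6.17 CPM). Lrat, which marks quiescent stellate cells, had 0 or 1 counts in every library, and Des, a pericyte and stellate cell marker, 23 at most. Of 8 markers of cholangiocytes and mesothelium 4 were tested, with 2 higher and 0 lower in dKO cells under each condition. The 8 summed to 44.0 to 264 CPM in the dKO libraries and 2.58 to 3.51 CPM in the WT libraries. Most of the dKO sum came from Spp1, at 25.6 to 244 CPM in those libraries. The untested Krt7, Epcam, Msln and Upk3b had 15 counts at most in any library. Of 14 endothelial markers 0 were higher and 5 lower in dKO cells with cytokines, and 0 were higher and 6 lower without, in edgeR. Among all tested genes, 18.6% were higher and 15.4% lower in dKO cells with cytokines, and 13.4% and 9.66% without. Among the members, Cd274 and Pvr were lower in dKO cells with cytokines, and Icosl without. The part of any of these markers in the members' differences was not tested.

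Pvr (ENSMUSG00000040511, GRCm38 chromosome 7, 19903578 to 19921160, minus strand) had 174 and 228 CPM in dKO cells with cytokines and 417 and 366 CPM in WT cells with cytokines. Without cytokines it had 69.4 and 121 CPM in dKO cells and 176 and 174 CPM in WT cells. The WT cytokine libraries were the highest and the dKO libraries without cytokines the lowest, while dKO libraries with cytokines and WT libraries without overlapped. Pvr rose 2.24-fold with cytokines in WT cells (log2 fold change 1.16, SE 0.27, adjusted p = 0.0326, edgeR). In dKO cells the log2 fold change was 1.08 (SE 0.27, 95% interval 0.43 to 1.72, adjusted p = 0.0743, edgeR), which did not pass. The difference between the responses was -0.09 (SE 0.37, 95% interval -0.99 to 0.82, adjusted p = 0.969, edgeR). Pvr was 1.95-fold lower in dKO than in WT cells under cytokines (log2 fold change -0.96, SE 0.27, adjusted p = 0.0355, edgeR), and without cytokines the log2 fold change was -0.88 (SE 0.27, 95% interval -1.52 to -0.23, adjusted p = 0.0598, edgeR).

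The Pvr calls depended on single libraries. The WT response was lost without any 1 of the 4 libraries compared (0.0970 to 0.164) and without the filter on low counts (0.0625). The genotype difference under cytokines was lost without any 1 of its 4 libraries (0.0537 to 0.171), without WT replicate 1 or 2 lacking cytokines (0.0643 and 0.0648) and without the filter (0.0689). Without the dKO replicate 2 library lacking cytokines, Pvr passed in both contrasts that had missed, with a log2 fold change of 1.53 for the dKO response (adjusted p = 0.0224) and of -1.33 for dKO against WT without cytokines (adjusted p = 0.0101). Both also passed without both dKO replicate 2 libraries (adjusted p = 0.00638 and 0.00112) and in DESeq2 (0.00219 and 0.00730).

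Cd40 (ENSMUSG00000017652, GRCm38 chromosome 2, 165055627 to 165072948, plus strand) was scarce. It had 60 and 47 counts in dKO cells with cytokines (2.73 and 2.08 CPM) and 11 and 24 counts in WT cells with cytokines (0.485 and 0.942 CPM). Without cytokines it had 12 and 11 counts in dKO cells (0.536 and 0.457 CPM) and 1 and 3 counts in WT cells (0.0369 and 0.101 CPM). The dKO cytokine libraries were the highest and the WT libraries without cytokines the lowest, with the other 4 libraries overlapping in between. Cd40 rose with cytokines 4.80-fold in dKO cells (log2 fold change 2.26, SE 0.49, adjusted p = 0.0493, edgeR) and 9.60-fold in WT cells (3.26, SE 0.62, adjusted p = 0.0181, edgeR). It was higher in dKO than in WT cells 3.33-fold with cytokines (1.74, SE 0.47, adjusted p = 0.0313, edgeR) and 6.67-fold without (2.74, SE 0.64, adjusted p = 0.0278, edgeR). The difference between the cytokine responses was -1.001 on the log2 scale (SE 0.77, 95% interval -2.85 to 0.85, adjusted p = 0.712, edgeR).

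Against the 4 counts of WT cells without cytokines, the ratio of summed counts per library size was 7.03 for dKO cells without cytokines (95% exact interval 2.40 to 28.0) and 10.3 for WT cells with cytokines (3.69 to 39.9), where the intervals cover counting error only. Without WT replicate 2 lacking cytokines, the log2 fold change between the genotypes without cytokines was 3.57 and the WT response 4.10, and without WT replicate 1 lacking cytokines they were 2.23 and 2.76. All 4 Cd40 calls were lost under some alternatives. The dKO response lost its call without any 1 of the 8 libraries (0.0721 to 0.181), with upper quartile scaling (0.0534), without both dKO replicate 2 libraries (0.131) and with the 4 libraries compared alone (0.143). The difference without cytokines was lost without any 1 of its 4 libraries (0.0508 to 0.136), without both dKO replicate 2 libraries (0.0505) and with those 4 alone (0.0610), and that with cytokines without any 1 of its 4 libraries (0.0526 to 0.147) and with those 4 alone (0.0552). The WT response was lost without WT replicate 2 given cytokines (0.0812) and without WT replicate 1 (0.114) or replicate 2 (0.0737) lacking them. In the 15 or 16 alternatives of these 4 contrasts the direction was the same.

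Over the 5 tested members, 4 were called under cytokines between dKO and WT, with 2 higher (Cd40, Cd276) and 2 lower (Cd274, Pvr), where 34% of all tested genes were called, 18.6% higher and 15.4% lower. Without cytokines 3 were called, 2 higher (Cd40, Cd276) and 1 lower (Icosl), against 23% of all genes, 13.4% higher and 9.66% lower. With cytokines 2 members rose in dKO cells and 0 fell, against 5.55% of all genes called, 3.5% higher and 2.06% lower. In WT cells 4 rose and 0 fell, against 17.4% of all genes called, 9.72% higher and 7.69% lower. That 17.4% was made of 1526 higher and 1207 lower genes, a split that was 1233 and 1477 with upper quartile scaling. In the test of the difference between cytokine responses 0 members passed, against 0% of all genes. In that test Cd274 alone among the members passed in DESeq2, and it alone had an unadjusted p under 0.05, while over all genes DESeq2 called 372 and 1683 had an unadjusted p under 0.05. The dKO response count was 1 or 0 without any 1 of the 8 libraries, 1 with upper quartile scaling or without both dKO replicate 2 libraries and 0 when those 4 libraries alone were fitted. The WT response count was 3 without replicate 1 and 2 without replicate 2 of WT cells given cytokines, and 1 without replicate 1 and 0 without replicate 2 lacking them. The count under cytokines between dKO and WT was 1 without dKO replicate 1 or 2, 2 without WT replicate 1 or 2, and 2 with the 4 libraries alone. The count without cytokines was 1 without dKO replicate 1 or without either WT library, and 2 without dKO replicate 2.

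**Figure D3:**
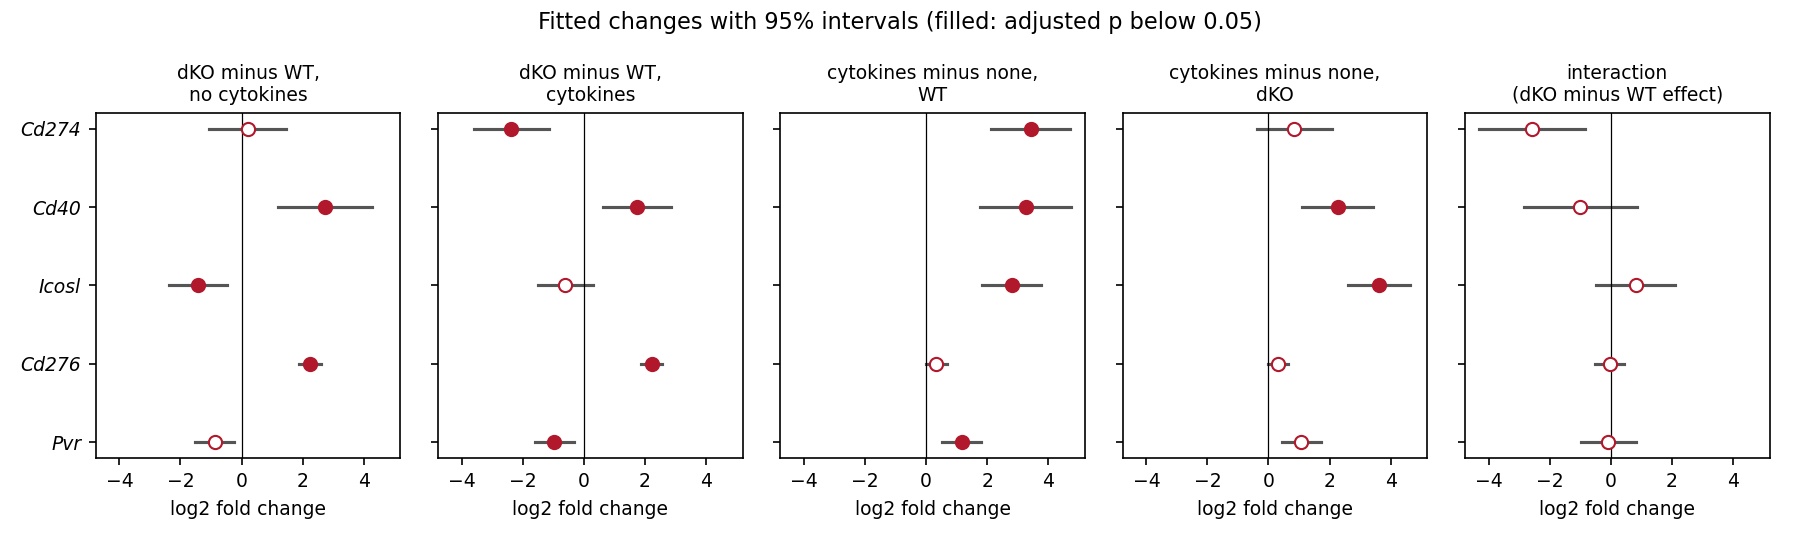
Fitted log2 fold change (horizontal axis) of the 5 tested genes in the 5 contrasts, with the 95% interval as a line and a filled point where the adjusted p was below 0.05. Cd276 lies to the right in both genotype contrasts, Icosl in both cytokine contrasts, and the interaction panel holds no filled point, with Cd274 at -2.58.

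The profiles of the members over the 8 libraries were unlike each other. The root mean square difference of their centred log2 levels ran from 0.86, between Cd274 and Pvr, to 2.20, between Icosl and Cd276. Among 10208 genes with at least 10 CPM in a group, the nearest profiles to Cd274 were those of Tap1, a peptide transporter of MHC class I loading (0.20), the guanylate-binding protein gene Gbp11 (0.26) and Xaf1, an interferon-inducible gene (0.30). The nearest to Icosl were Plek (0.52), Neurl3 (0.60) and the hyaluronan receptor gene Cd44 (0.61). The nearest to Cd276 were Slc4a3 (0.16), the plexin gene Plxna3 (0.19) and Aplp1 (0.19), and the nearest to Pvr were Uhrf1 (0.13), Ppm1f (0.16) and Fam49a (0.16). Those to Cd40 were Psd3 (0.33), Jak2 (0.38) and Ttc39c (0.39). The distances are on the log2 scale over 8 libraries that share 4 conditions.

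Calls among relatives of the members in the B7, butyrophilin and nectin families are given beside the shares of all genes. Of 13 listed genes 9 were tested, and Cd86, Vtcn1 and Btnl2 had 0 counts in every library. In dKO against WT cells 1 was higher and 0 lower with cytokines (median log2 fold change 0.58, against 0.01 for all genes), and 2 were higher and 0 lower without (0.51, against 0.02). These contrasts had calls in 34% and 23% of all genes. Nectin1, an adhesion molecule gene, was 3.07-fold higher in dKO cells with cytokines (adjusted p = 0.00274, edgeR) and 1.54-fold higher without (adjusted p = 0.0448, edgeR). Ildr2, a B7-like gene, averaged 69.1 CPM in dKO and 13.3 CPM in WT cells without cytokines, 5.19-fold higher (adjusted p = 0.0287, edgeR). With cytokines Ildr2 fell 9.33-fold in dKO cells (adjusted p = 0.0339, edgeR), the 1 call there, where 5.55% of all genes were called. The dKO libraries without cytokines differed, at 104 CPM in replicate 1 and 33.8 CPM in replicate 2. Without replicate 1 the log2 fold change of Ildr2 was 1.34 between the genotypes (adjusted p = 0.0501, edgeR) and -2.19 in the dKO response (0.0452), and without replicate 2 it was 2.97 (0.00373) and -3.82 (0.00833). These 2 Ildr2 calls were lost in 7 of 15 and 8 of 16 alternatives, and that of Nectin1 without cytokines in 9 of 15. In WT cells, where 17.4% of all genes were called, the 1 call was Vsir, which encodes the checkpoint ligand VISTA. It had 178 CPM with and 40.3 CPM without cytokines, 4.42-fold higher (adjusted p = 0.0132, edgeR), a call lost in 4 of 16 alternatives.

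Among TNF-family ligands and the receptor gene Tnfrsf14, 5 of 10 listed genes were tested. With cytokines 0 were higher and 3 lower in dKO than in WT cells (median log2 fold change -2.83, against 0.01 for all genes), where 34% of all genes were called. Tnfsf10, which encodes the death ligand TRAIL, averaged 7.67 CPM in dKO and 209 CPM in WT cells, 27.2-fold lower (adjusted p = 0.0103, edgeR), Tnfsf18, the GITR ligand gene, was 13.5-fold lower (adjusted p = 0.0283, edgeR) and Tnfsf15, the TL1A gene, was 7.11-fold lower (adjusted p = 0.00500, edgeR). Without cytokines, where 23% of all genes were called, 1 was higher, Tnfrsf14 (1.97-fold, adjusted p = 0.0311, edgeR), and 2 were lower, Tnfsf10 (11.8-fold, adjusted p = 0.0279, edgeR) and Tnfsf18 (7.86-fold, adjusted p = 0.0425, edgeR). With cytokines 0 of the 5 passed in dKO cells in edgeR, against 2 in DESeq2 and 3 with an unadjusted p under 0.05. In WT cells 2 rose and 0 fell, Tnfsf15 7.28-fold (adjusted p = 0.00775, edgeR) and Tnfrsf14 2.11-fold (adjusted p = 0.0282, edgeR). The dKO and WT responses had calls in 5.55% and 17.4% of all genes.

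The sizes of the Tnfsf18 and Tnfsf10 differences rest on few libraries. Tnfsf18 had 3 and 19 counts in dKO cells with cytokines and 97 and 231 counts in WT cells with cytokines. Its log2 fold change there was -2.99 without dKO replicate 1 (adjusted p = 0.133, edgeR), -5.56 without dKO replicate 2 (0.0463) and -3.11 without WT replicate 2 (0.112), and the call was lost in 6 of 15 alternatives. Without cytokines it was -2.33 without dKO replicate 1 (adjusted p = 0.129, edgeR) and -4.21 without dKO replicate 2 (0.0278), with the call lost in 7 of 15. For Tnfsf10 with cytokines it was -4.15 without dKO replicate 1 (adjusted p = 0.0519, edgeR), -5.89 without dKO replicate 2 (0.0188) and -4.17 without WT replicate 1 (0.0565), and without cytokines -4.56 without dKO replicate 2 (0.0378). The Tnfsf10 calls were lost in 2 of 15 alternatives with and 6 of 15 without cytokines. For Tnfsf15 the difference between the genotypes was -3.48 without dKO cytokine replicate 2 (adjusted p = 0.00316, edgeR), with the call lost in 0 of 15, and its WT response was lost in 2 of 16. The Tnfrsf14 calls were lost in 5 of 15 alternatives between the genotypes and 4 of 16 in the WT response.

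Other genes of ligands and enzymes that act on T and natural killer cells had calls in both directions. Not all of them restrain these cells. Raet1d, Raet1e, Ulbp1 and H60b in the list encode ligands of the activating receptor NKG2D. Of 16 listed genes 15 were tested. In dKO against WT cells 3 were higher and 3 lower with cytokines, and 4 were higher and 4 lower without, where 34% and 23% of all genes were called. Nt5e, which encodes the adenosine-forming enzyme CD73, averaged 22.6 CPM in dKO and 1.26 CPM in WT cells with cytokines (17.9-fold higher, adjusted p = 0.00955, edgeR), and 25.1 CPM in dKO and 1.57 CPM in WT cells without (15.9-fold higher, adjusted p = 0.0146, edgeR). Fgl1, a ligand gene of the receptor LAG3, was 5.97-fold higher with cytokines (adjusted p = 0.0105, edgeR) and 6.49-fold higher without (adjusted p = 0.0136, edgeR). Lgals9, the galectin-9 gene, averaged 62.3 CPM in dKO and 230 CPM in WT cells with cytokines, 3.69-fold lower (adjusted p = 0.00760, edgeR). Clec4g, the gene of a lectin of liver sinusoidal endothelium, had 0 and 6 counts in dKO cells and 791 and 1006 counts in WT cells without cytokines (adjusted p = 0.00443, edgeR). With cytokines 0 of the 15 passed in dKO cells in edgeR, against 1 in DESeq2 and 2 with an unadjusted p under 0.05. In WT cells 1 rose, Lgals9 (3.57-fold, adjusted p = 0.0132, edgeR), and 2 fell, Clec4g, with 2 and 5 counts left (adjusted p = 0.00456, edgeR), and Entpd1, the gene of the ATP-degrading enzyme CD39 (4.20-fold, adjusted p = 0.0189, edgeR). Over all genes, 5.55% were called in the dKO and 17.4% in the WT response. The log2 fold change of Nt5e was 3.38 without dKO cytokine replicate 2 (adjusted p = 0.0205, edgeR), and without cytokines 3.33 without dKO replicate 2 (0.0303) and 4.81 without WT replicate 2 (0.0564). That of Fgl1 with cytokines was 3.45 without WT replicate 2 (adjusted p = 0.0205, edgeR). The calls were lost in 2 of 15 alternatives for Nt5e under each condition, in 0 of 15 with and 3 of 15 without cytokines for Fgl1, in 1 of 15 between genotypes and 2 of 16 in the WT response for Lgals9, in 5 of 16 for Entpd1 and in none for Clec4g.

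**Figure D4:**
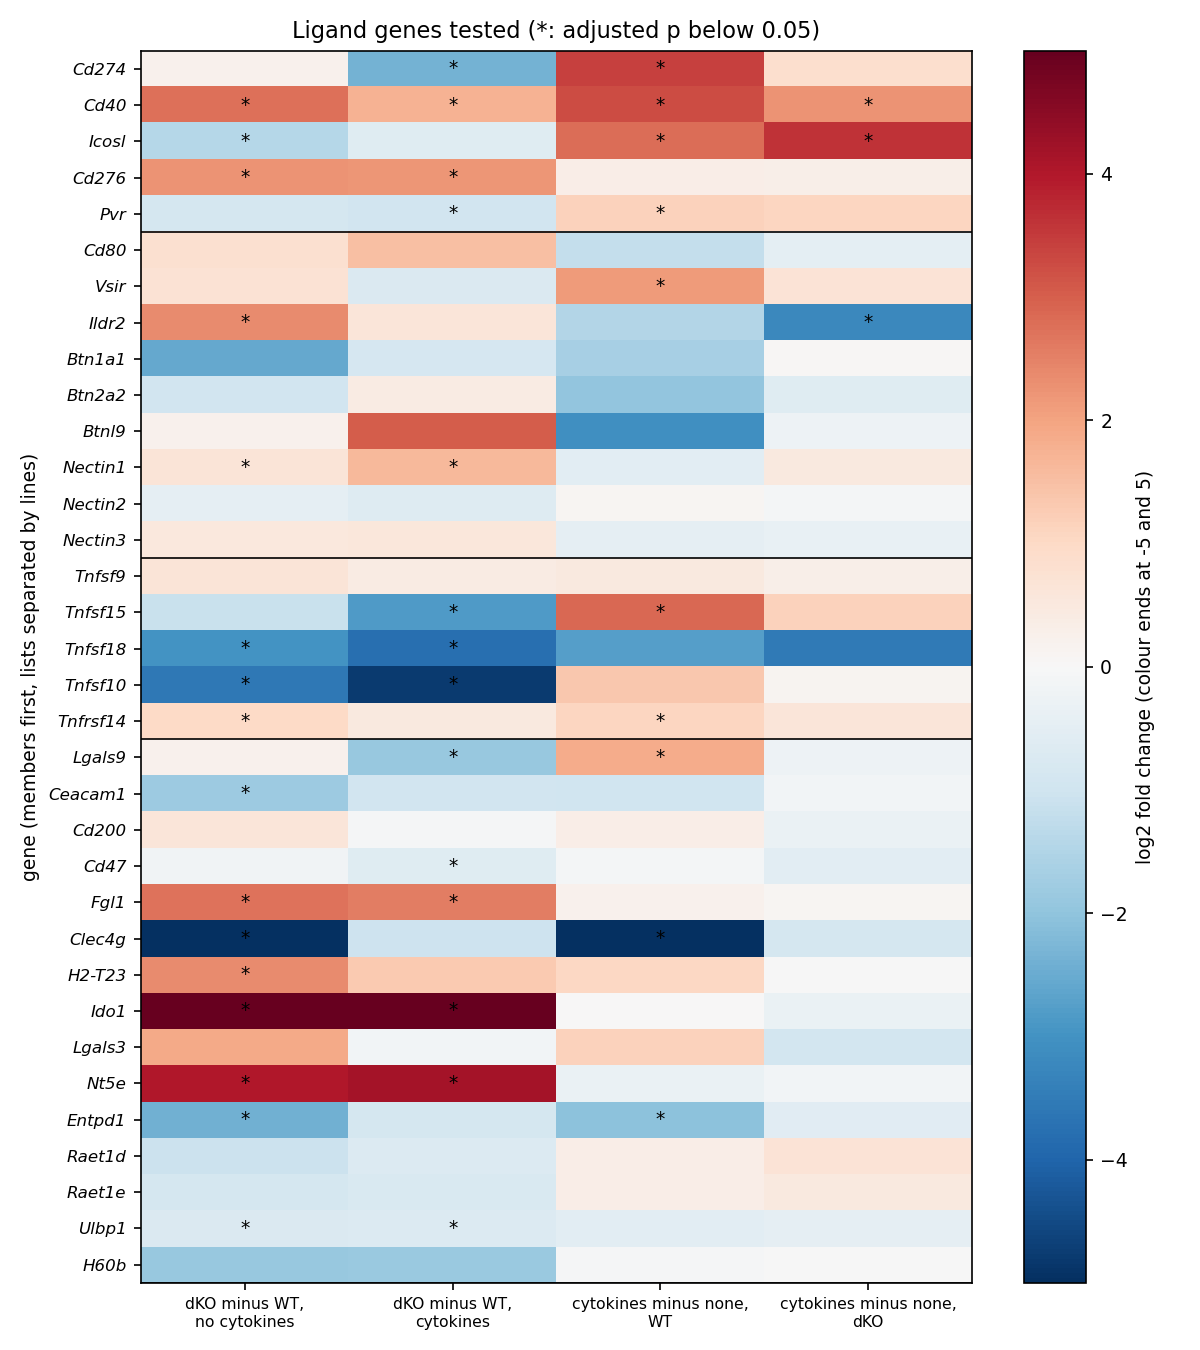
Fitted log2 fold change (colour, ending at -5 and 5) of the tested members and of the tested genes of the 3 ligand lists, by row, in the 4 contrasts, with a star where the adjusted p was below 0.05. Cd276 and Cd40 have starred red cells in both genotype columns, and Tnfsf10 and Tnfsf18 starred blue ones.

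Among the adaptors of CD40 and the noncanonical NF-kB genes, calls with cytokines were upward in both genotypes. Of 10 listed and tested genes 6 rose and 0 fell in dKO cells (median log2 fold change 0.88, against -0.01 for all genes), and 5 rose and 0 fell in WT cells (1.07, against -0.01). Over all genes, 3.5% rose and 2.06% fell in dKO cells, and 9.72% rose and 7.69% fell in WT cells. Traf1, an adaptor induced by NF-kB, rose 3.66-fold in dKO cells (adjusted p = 0.0426, edgeR) and 3.45-fold in WT cells (adjusted p = 0.0236, edgeR). Birc3, a ubiquitin ligase of the TRAF complex, rose 2.93-fold in dKO cells (adjusted p = 0.00740, edgeR) and 3.17-fold in WT cells (adjusted p = 0.00279, edgeR). In dKO against WT cells 1 was higher and 2 lower with cytokines, among them Relb, the NF-kB subunit gene (1.56-fold lower, adjusted p = 0.00651, edgeR), and 1 was higher and 0 lower without, Birc2 (1.51-fold, adjusted p = 0.0118, edgeR). These contrasts had calls in 34% and 23% of all genes. The Traf1 call was lost in 9 of 16 alternatives in dKO cells, where the log2 fold change was 1.87, and 2.55 without dKO replicate 2 lacking cytokines (adjusted p = 0.00988, edgeR), and in 5 of 16 in WT cells. That of Birc3 was lost in 1 of 16 in dKO and 0 of 16 in WT cells, that of Relb in 1 of 15 and that of Birc2 in 3 of 15.

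Genes of the interferon-gamma pathway and regulators of PD-L1 protein stood beside Cd274. Of 16 listed and tested genes 2 rose and 0 fell with cytokines in dKO cells (median log2 fold change 0.28, against -0.01 for all genes), and 8 rose and 0 fell in WT cells (0.52, against -0.01). The dKO and WT responses had calls in 5.55% and 17.4% of all genes. Irf1, a transcription factor known to drive PD-L1 transcription, averaged 127 CPM in dKO cells with cytokines and 42.5 CPM without, a rise of 2.98-fold (adjusted p = 0.0136, edgeR), and 213 CPM in WT cells with cytokines and 44.7 CPM without, 4.75-fold (adjusted p = 0.00241, edgeR). Nlrc5, a transactivator of MHC class I genes, rose 8.73-fold in WT cells (log2 fold change 3.13, adjusted p = 0.0213, edgeR), with 29.2 and 10.6 CPM in the 2 cytokine libraries, and without replicate 1 of these its log2 fold change was 2.20 (adjusted p = 0.0867, edgeR). The Nlrc5 call was lost in 3 of 16 alternatives, and that of Irf1 in 4 of 16 in dKO and 0 of 16 in WT cells. In dKO against WT cells 3 were higher and 4 lower with cytokines, and 2 were higher and 1 lower without, where 34% and 23% of all genes were called. Jak1, a kinase of interferon receptors, was 2.48-fold lower in dKO than in WT cells with cytokines (adjusted p = 0.00773, edgeR). Without cytokines Jak1 was 1.79-fold lower (adjusted p = 0.0382, edgeR) and Cmtm4, a stabiliser of PD-L1 protein, 1.69-fold higher (adjusted p = 0.0131, edgeR). The Jak1 call was lost in 1 of 15 alternatives with and 6 of 15 without cytokines, and that of Cmtm4 in 3 of 15.

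Receptor and other genes of lymphocytes, among them the receptors of some members, were at low counts. Of 12 listed genes 4 were tested, and the list summed to 0.825 to 6.66 CPM per library. Pdcd1, Cd40lg, Cd226 and Cd3e had 0 counts in all 8. Between the genotypes 34% of all genes were called with cytokines and 23% without, and 5.55% in the dKO response. Lag3 was higher in dKO than in WT cells with cytokines (38 and 22 counts against 4 and 6, adjusted p = 0.0345, edgeR). That call was lost in 3 of 15 alternatives. In edgeR Tigit was higher in dKO than in WT cells without cytokines (89 and 118 counts against 10 and 17, adjusted p = 0.0220), and in dKO cells it had 2 and 8 counts with cytokines against 89 and 118 without (adjusted p = 0.0312). These calls were lost in 3 of 15 and 6 of 16 alternatives, and the log2 fold change of the dKO response was -4.28, -3.64 without dKO cytokine replicate 1 (adjusted p = 0.115, edgeR) and -5.54 without replicate 2 (0.0438).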

How the data were processed

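The authors deposited 1 table of raw read counts per Ensembl gene for the 8 libraries. The build GRCm38 and the tools STAR 2.7.6a and FastQC 0.11.5 are named, without roles, per the submitters' processing notes. How reads were assigned to genes, and by which annotation and strand, is not given in the sources used here, and the labels' protocols name both an unstranded and a stranded library kit. Gene names, coordinates and merged exon lengths came from GENCODE M21 of GRCm38, which named 52489 of the 52636 identifiers.

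These counts were tested with edgeR 4.0.16 in R 4.3.3, using TMM scaling, filterByExpr by group at its minimum count of 10 (15698 genes left) and its robust quasi-likelihood test with a mean for each group, fitted to the 8 libraries together. The fit had 4 residual degrees of freedom and a common biological coefficient of variation of 24.3%. Two-sided p-values were adjusted by Benjamini and Hochberg's method across the tested genes of a contrast, at a threshold of 0.05. The SE is the log2 fold change divided by the square root of the F statistic, and 95% intervals use the t distribution with the fit's degrees of freedom. CPM values use TMM-scaled library sizes, and values per kb divide them by merged exon length. The code was tested on simulated counts. Floors and intervals cover counting error or the spread of these libraries only, since without molecular identifiers reads are not separate molecules. Alternatives were RLE and upper quartile scaling, no filter, DESeq2 1.42.0, fits of the libraries compared alone, the replicate number as a block, and leaving out libraries.

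The members and gene lists were chosen with earlier results of these data known. Genes outside the members are named if they are among the 3 largest called changes of their list in a contrast with a group mean of at least 1 CPM (where none passed, its most abundant gene), or the 3 nearest to a member in profile among genes with a group mean of at least 10 CPM. Not every gene that this names is reported.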

Additional observations from a re-analysis of the deposited data

How the results depend on the processing

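With 2 libraries a group and 4 residual degrees of freedom, many calls rest on single libraries. Over 75 results for single genes, 1154 values were computed under other settings: 925 were on the same side of the threshold, 187 lost the call, 32 gained it and 10 changed sign. Sign changes were in differences between cytokine responses near 0 and without a call, and the cause was not tested. That of Cd276 was 0.00793 with upper quartile scaling, 0.00478 without the filter, 0.0855 without WT cytokine replicate 2, 0.0970 without dKO replicate 2 and 0.0989 without WT replicate 1 lacking cytokines, and 0.0969 without both dKO replicate 2 libraries, and leaving out 1 library gave -0.16 to 0.0989. That of Pvr was 0.0866 without dKO and 0.0307 without WT cytokine replicate 1, 0.373 without dKO replicate 2 lacking cytokines and 0.189 without both dKO replicate 2 libraries, and leaving out 1 library gave -0.41 to 0.373.

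Members called between dKO and WT cells under cytokines numbered 2 with the compared libraries alone. In the dKO response they numbered 1 with upper quartile scaling, 0 with the compared libraries alone and 1 without both dKO replicate 2 libraries, and in the difference between responses 1 in DESeq2. Leaving out each library in turn gave 1 to 4 members between the genotypes with cytokines, 1 to 3 without, 0 to 1 in the dKO response, 0 to 4 in the WT response and 0 to 0 in the difference.

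Genes called between the genotypes without cytokines numbered 3617, 2266 with the compared libraries alone and 5602 without both dKO replicate 2 libraries. The dKO response had 872, 1734 in DESeq2, 1 with the compared libraries alone and 1339 without both dKO replicate 2 libraries. The WT response had 2733, 4585 with the compared libraries alone and 4417 without both dKO replicate 2 libraries. The difference between responses had 0, 75 without the filter, 372 in DESeq2 and 193 without both dKO replicate 2 libraries. Leaving out each library gave 1621 to 5523 and 527 to 3783 genes between the genotypes with and without cytokines, 130 to 731 and 413 to 2749 in the dKO and WT responses and 0 to 41 in the difference. Over the 5 gene lists, 211 of 310 counts of calls were within 1.5 times the reported one and 99 were not, an alternative added after seeing the data.

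Libraries of a genotype with and without cytokines share replicate numbers, but no label says what the number marks. The main fit did not use it. Deviations of same-numbered libraries correlated over 15698 genes with r = 0.689 within dKO, 0.434 within WT and 0.0168 to 0.134 across the genotypes. With the number as a replicate block within genotype, 3769 genes were called in the dKO response, 5943 in the WT response and 947 in the difference, with 1 member, Cd274 (log2 difference -2.43, adjusted p = 0.0479, edgeR), and Pvr passed in the dKO response (0.000467). With 1 block shared by all groups, 1351 genes were called in the dKO response, and Pvr without cytokines (0.0403) and Icosl with cytokines (0.0309) passed between the genotypes.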

Other observations

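The 2 WT cytokine libraries differed in Cd274 by 3.03-fold, replicate 1 over replicate 2, a ratio that 0.823% of 13845 genes reached in that group, where the median was 0.999. The same ratio was 3.84 for Xaf1, 2.76 for Gbp11, 2.75 for Nlrc5, 2.59 for Tap1 and 1.52 for Irf1. Over the 16 listed genes of the interferon-gamma pathway and PD-L1 regulation, which include Nlrc5 and Irf1, the median ratio was 1.03, the range 0.861 to 2.75, and 4 were above 1.5. Jak1 had 1.18, Jak2 1.19 and Ifngr1 0.982. Among the other members it was 1.65 for Icosl, 1.14 for Pvr, 0.866 for Cd276 and 0.515 for Cd40. Xaf1, Gbp11 and Tap1 had been picked for their likeness to Cd274 over these libraries, so their ratios are not independent of it. In dKO cells with cytokines the ratio was 1.40 for Cd274 and 1.70 for Icosl.

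Ido1, which encodes a tryptophan-degrading enzyme that restrains T cells, had 9 and 13 counts in dKO cells with cytokines and 0 and 0 counts in WT cells with cytokines, and 14 and 15 counts in dKO cells without and 0 and 0 counts in WT cells without. It was chosen after its values were seen.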
